A study of Mus musculus with 8 samples.

Results

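The genes described here encode the vesicle coats that move proteins between the endoplasmic reticulum (ER) and the Golgi apparatus, with the receptors that load cargo into them and the factors that start and steer the vesicles. They were taken by name: a gene is included if its symbol in the deposited expression table equals 1 of 46 listed symbols, and all 46 were found among 24535 genes. The list falls into 9 genes of the COPI coat, 10 genes of the COPII coat, 18 cargo receptors and 9 regulators. The genes were chosen by role and selected on these same FPKM values: earlier results of the comparison of PATKO with WT tissue were in view, so the values of the genes in that comparison are given as a description and support nothing further.

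The tissue was brown fat, in which mammals make heat, from mice of strain 129Sv/C57BL6j that were 18 weeks old, kept at 30 °C and fed chow without restriction. In the PATKO group (libraries 53, 57, 70 and 71) the mice carried an adipose tissue knockout of PGRMC2, which the series title describes as a heme chaperone, and in the WT group (libraries 55, 62, 64 and 65) they were wild type. The promoter that drives the knockout is not given in the sources used here, and the RNA came from whole tissue, in which cells other than adipocytes are also present. The labels do not say whether each library is 1 animal, so the errors measure the spread between these libraries, which may be technical.

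Secretory and membrane proteins leave the ER in vesicles coated with COPII, which assembles when the GTPase SAR1 recruits the SEC23-SEC24 inner layer and then the SEC13-SEC31 outer cage. COPI, a complex of subunits named alpha to zeta that ARF1 recruits as a whole, returns escaped ER proteins and receptors from the Golgi. Receptors such as the p24 (Tmed) proteins, the KDEL receptors and the lectin LMAN1 span the membrane and travel in both directions between the compartments. Adipocytes use this route for the adipokines and the lipoprotein lipase that they secrete.

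Facts about the libraries bear on every value. FPKM, a level of expression corrected for gene length and library size, summed to 310782 ± 3791 per PATKO library and 289518 ± 1608 per WT library (SD, n = 4 each), without overlap (exact permutation test, two-sided, p = 0.0286, which is the lowest value reachable with 70 assignments). The median log2 change of the 12235 genes tested was 0.17 with FPKM as deposited, and -0.00 after median-of-ratios scaling, which divides each library by its median ratio to the mean library. Pgrmc2 was 3.23, 2.99, 3.67 and 3.07 FPKM in PATKO 53, 57, 70 and 71, against 35.5, 41.5, 40.4 and 36.8 FPKM in WT 55, 62, 64 and 65. Brown adipocyte markers summed to between 4055 and 5465 FPKM in PATKO and between 3763 and 5297 FPKM in WT. The uncoupling protein gene Ucp1 ran from 409.0 to 645.2 FPKM in PATKO and from 521.5 to 1305 FPKM in WT. The 1305 FPKM was WT 64 alone, and the next WT library was WT 55 at 583.4 FPKM. All 16 skeletal muscle markers passed the test as higher in PATKO (0 after the scaling). They summed to between 1544 and 5957 FPKM in PATKO libraries and between 554.0 and 1341 FPKM in WT libraries. After the scaling the muscle sums still did not overlap. The median log2 change of these markers was 1.77 before the scaling and 1.59 after it. Fibroblast markers (2 of 8 passed, higher) summed to between 269.6 and 513.4 FPKM in PATKO and between 238.0 and 267.5 FPKM in WT. After the scaling 0 of them passed and the fibroblast sums overlapped. Of 6 tested Schwann cell markers 2 passed as higher (0 after the scaling), and their sums overlapped on both scales. Mast cell markers (4 of 6 tested passed, higher, and 1 after the scaling) summed to between 20.1 and 24.5 FPKM in PATKO and between 11.7 and 15.6 FPKM in WT. The mast cell sums did not overlap on either scale. No marker of these lists was at 0 in all libraries, and the part of fibroblast and mast cell RNA in the values below was not tested. For muscle, only a fit with its level as a covariate was made, given below. In whole tissue, fewer cells of a type and less RNA per cell cannot be told apart.

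Nearly every gene of the list had a higher mean log2 level in PATKO. Of the 46 genes, all of which passed the filter on low values, 44 had a log2 change above 0 and 2 below 0. Most genes of the table did so too: of all 12235 genes tested, 10275 lay above 0 and 1960 below. The median of the list was 0.33 beside 0.17 for all genes tested. Limma called 29 of the 46 higher and 0 lower at an adjusted p under 0.05, where 13.2% of all genes tested were called higher and 0.270% lower. Before adjustment, 38 of the 46 had p under 0.05 as higher and 0 as lower, where 34.6% of all genes tested were higher and 1.39% lower. The PATKO and WT libraries did not overlap for 33 of the 46 genes, all higher in PATKO, where 24.0% of all genes tested lay wholly above and 0.597% wholly below. Since the list was chosen with this comparison known, nothing is read from these counts.

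The counts of calls changed with the scale of the libraries and when single libraries were left out. With that scaling applied, 0 of the 46 genes were called by limma, where 0.0817% of all genes were called higher and 0.0409% lower. Before adjustment, 23 then had p under 0.05 as higher and 2 as lower, where 9.10% of all genes were higher and 8.21% lower. On that scale 38 genes of the list lay above 0 and 8 below, where 5988 of all genes tested lay above 0 and 6247 below. The median of the list was then 0.14 beside -0.00 for all genes. Without overlap were 17 genes of the list, all higher in PATKO, where 5.57% of all genes lay wholly above and 4.36% wholly below. With FPKM as deposited, the count of 29 became 2 without PATKO 53, 2 without WT 64, 9 without WT 62, 10 without PATKO 70, 16 without PATKO 71 and 16 without WT 65. It was 24 without PATKO 57 and 27 without WT 55. Cope and Tmed3 were the 2 genes called without PATKO 53 and again without WT 64. In both of these fits 44 of the 46 genes still had a log2 change above 0. The median of all genes was 0.18 without PATKO 53 and 0.16 without WT 64. Every fit with a library left out has fewer values to estimate the spread, and a lower count alone does not show that the library carried the changes. Why the counts differed between these fits was not tested. In a fit with the muscle level as a covariate limma called 0, and the median log2 change of the list was 0.30 beside 0.17 for all genes. Muscle marker sums did not overlap between the groups, so this fit cannot separate the muscle level from the genotype. In the authors' deposited table, whose test is not given in the sources used here, 11 of the 46 genes had an adjusted p under 0.05 with a higher PATKO mean and 1, Tmed5, with a lower one, where 1.27% and 0.962% of all genes did.

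**Figure D1:**
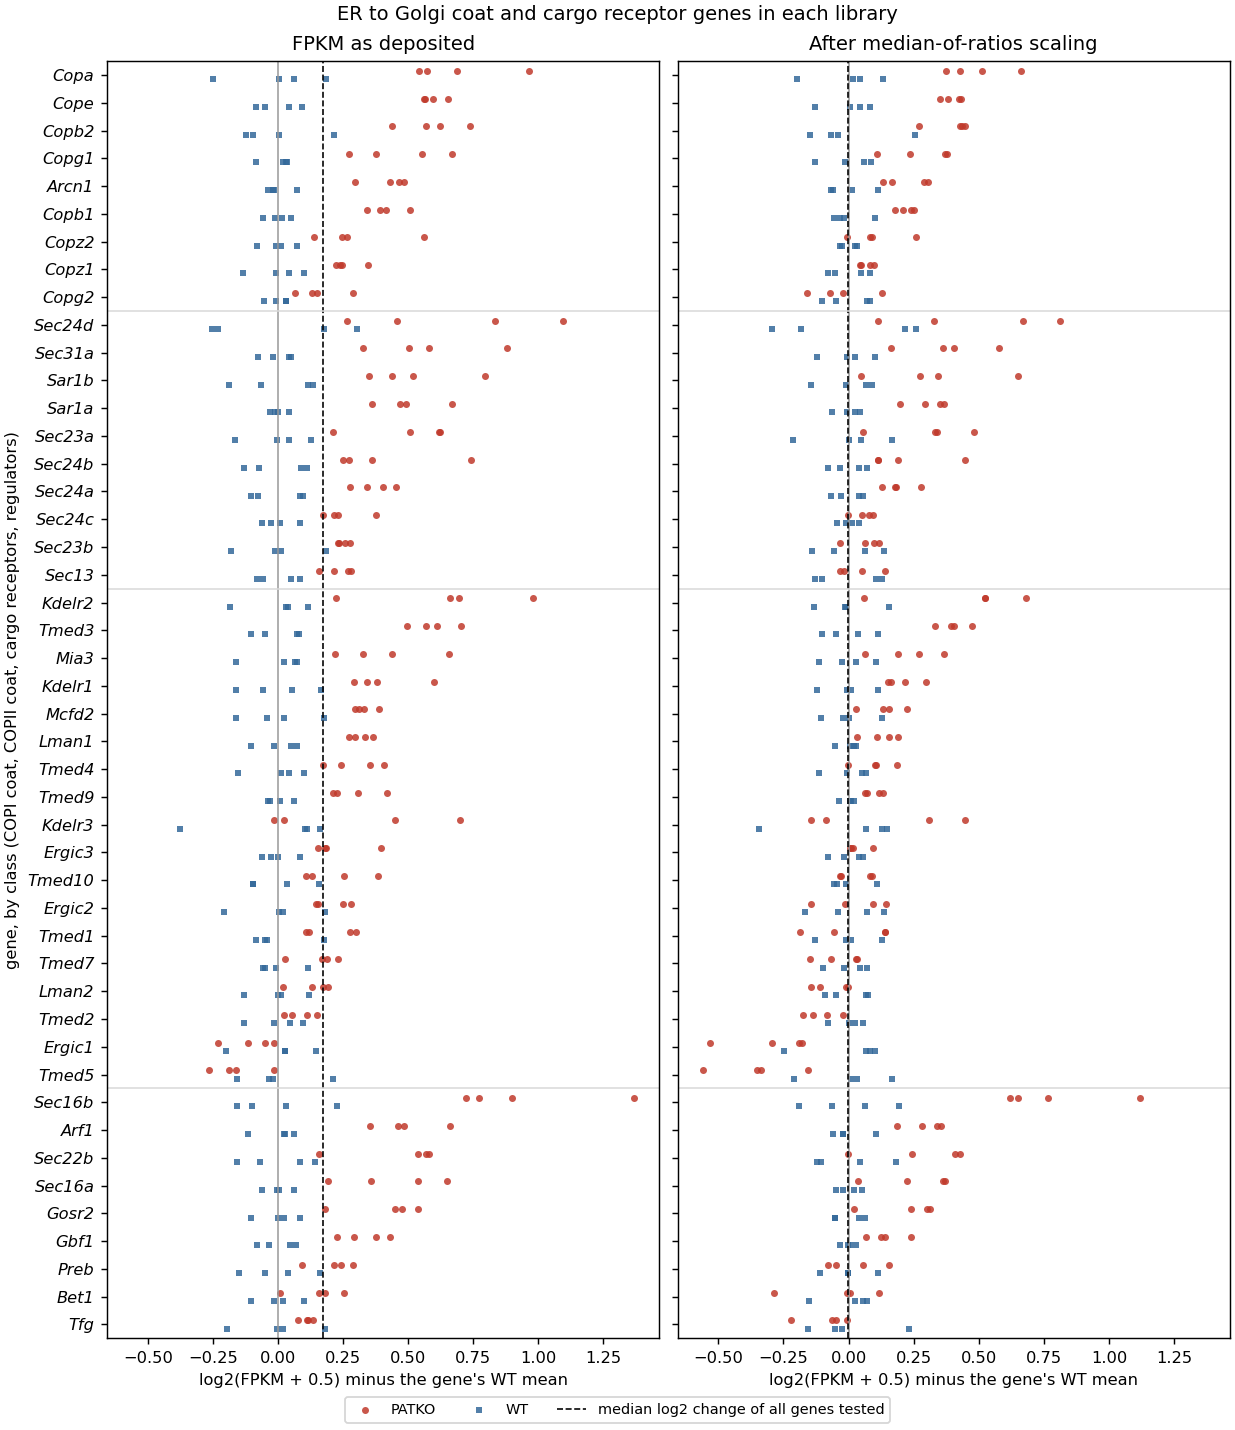
Each point is 1 library (red circles PATKO, blue squares WT); the x axis gives log2(FPKM + 0.5) minus the mean of the gene's WT libraries, and genes run down the page by class. With FPKM as deposited (left) 33 of 46 genes show no overlap between the groups, and after median-of-ratios scaling (right) 17 do; the dashed line marks the median log2 change of all genes tested.

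The medians of the COPI coat, the COPII coat and the regulators were alike and that of the cargo receptors was lower, a difference that was not tested. The median log2 change was 0.42 for the COPI coat, 0.45 for the COPII coat, 0.26 for the cargo receptors and 0.41 for the regulators. After median-of-ratios scaling these medians were 0.22, 0.26, 0.06 and 0.22. After that scaling limma called 0 genes in each class. With FPKM as deposited it called 7 of 9 COPI genes, 8 of 10 COPII genes, 8 of 18 cargo receptors and 6 of 9 regulators higher. Among all genes tested it called 13.2% higher with FPKM as deposited. The mean log2 difference of the COPI genes from their WT mean was 0.44, 0.36, 0.56 and 0.37 in PATKO 53, 57, 70 and 71. In WT 55, 62, 64 and 65 the same mean was 0.04, 0.04, -0.06 and -0.01. PATKO 70 was the highest and PATKO 57 the lowest PATKO library in each of the 4 classes on this scale. After median-of-ratios scaling the COPI mean was 0.26, 0.20, 0.26 and 0.23 in PATKO 53, 57, 70 and 71, and between -0.06 and 0.08 in WT. The cargo receptor mean was then between 0.03 and 0.09 in PATKO and between -0.03 and 0.04 in WT, and the groups overlapped.

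**Figure D2:**
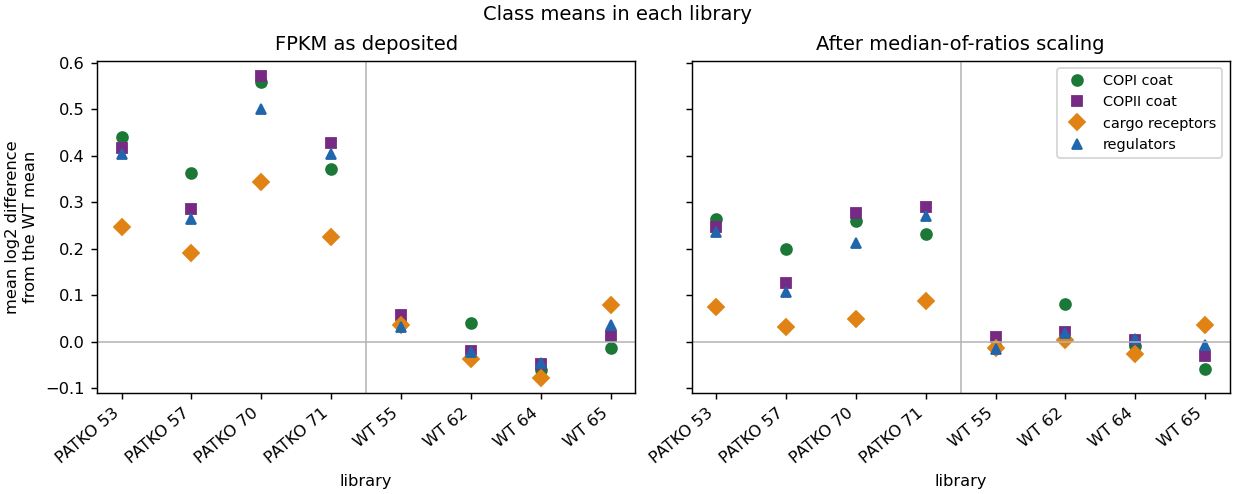
Each point is the mean over the genes of 1 class, in 1 library, of log2(FPKM + 0.5) minus the gene's WT mean. With FPKM as deposited (left) the PATKO libraries lie above the WT libraries in each class; after median-of-ratios scaling (right) they do so for the COPI coat, the COPII coat and the regulators, while the cargo receptors overlap.

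Taken as a share of all FPKM, which no scaling of a library alters, the 46 genes made up 0.431%, 0.413%, 0.458% and 0.425% in PATKO 53, 57, 70 and 71, against 0.370%, 0.352%, 0.343% and 0.369% in WT 55, 62, 64 and 65. The lowest PATKO library therefore stood above the highest WT library. A share also depends on the levels of the other genes. With each library divided by its FPKM sum (TPM scaling), the median log2 change of all genes tested was 0.09. The 46 genes were well expressed. Their WT means ran from 1.07 FPKM (Sec16b) to 57.7 FPKM (Arf1), with a median of 19.5 FPKM beside 5.60 FPKM for all genes tested. Their spread between libraries of the same group was narrow, with a median SD of 0.11 on the log2 scale beside 0.15 for all genes tested, from 0.06 (Copb1) to 0.33 (Sec24d). Within PATKO, library 70 held the highest value of 30 of the 46 genes and library 57 the lowest value of 22. After median-of-ratios scaling, library 71 held the highest PATKO value of 18 genes and library 70 of 14. With FPKM as deposited, the muscle, brown adipocyte and plasma cell marker sums were highest, among PATKO libraries, in PATKO 71. The fibroblast, mast cell, macrophage, lymphocyte, endothelial and Schwann cell sums were highest in PATKO 70, and the adipocyte sum in PATKO 57. The brown adipocyte sum was lowest in PATKO 70. Any link between these sums and the 46 genes was not tested.

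Promoters were searched because ER stress factors are known to bind short motifs in promoters of the secretory pathway. Sequences from 250 bases before to 50 bases after the gene start came from RefSeq (GRCm38.p6; mm10 is another name of this assembly) and were found for 41 of the 46 genes; Arcn1, Kdelr2, Lman1, Tmed2 and Tmed7 were not among them. Both strands were searched for the unfolded protein response element TGACGTGG, a motif bound by XBP1, ATF6 and related factors, which shares its first 6 bases with the cAMP response element TGACGTCA. The ER stress response element (CCAAT and CCACG spaced by 9 bases of any kind), its shorter form ERSE-II, and TCACGTGA, the core of the lysosomal CLEAR motif, were searched as well. A match is a description of the letters and does not show that a factor binds there.

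TGACGTGG was found in the promoters of 8 of the 41 genes (19.5%), and in 0.714% of the 27025 genes with a promoter sequence. Among the 9342 tested genes with a promoter, the share was 1.05%. The 8 genes were the COPI genes Copb1 and Copb2, the COPII genes Sec23a and Sec24d, the KDEL receptor gene Kdelr3, and the regulators Arf1, Gbf1 and Sec16b. With FPKM as deposited their median log2 change was 0.49, and that of the 33 genes of the list without a match was 0.29. Kdelr3 and Sec24d overlapped between the groups and were not called. The genes and motifs were chosen with this comparison known, so nothing is read from these medians, and their difference was not tested. In Copb2 the match reached the start and in Sec23a it lay after it. The sites of the other 6 are shown because they hold the motif upstream of the RefSeq start in genes of the 4 classes, of which the cargo receptors had 1 match in 14 promoters. Each is printed 5′ to 3′ on the strand of the gene, with TGACGTGG or its reverse complement in capitals and up to 11 bases on each side.
Arf1: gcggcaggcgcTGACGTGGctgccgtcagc
Sec16b: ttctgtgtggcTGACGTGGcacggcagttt
Sec24d: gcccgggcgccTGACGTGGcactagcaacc
Copb1: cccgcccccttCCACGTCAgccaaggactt
Kdelr3: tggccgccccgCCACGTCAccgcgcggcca
Gbf1: gaggctagttaCCACGTCAgtga

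The Arf1 site lies at chr11:59228228-59228257 on the minus strand, with the match from -84 to -77 relative to the RefSeq start. That of Sec16b lies at chr1:157506741-157506770 on the plus strand, with the match from -44 to -37. Sec24d is shown at chr3:123267459-123267488 on the plus strand, with the match from -26 to -19. Copb1 is shown at chr7:114254690-114254719 on the minus strand, with the match from -28 to -21. The Kdelr3 site lies at chr15:79516367-79516396 on the plus strand, with the match from -30 to -23, and that of Gbf1 at chr19:46152535-46152557 on the plus strand, with the match from -12 to -5. In the GENCODE annotation, outermost starts lie further upstream for several of these genes. The printed stretches of Arf1, Sec16b, Sec24d and Gbf1 lie wholly after that start. The stretch of Copb1 spans it, with the match after it, and only that of Kdelr3 lies wholly before it. RefSeq also lists a second start of Arf1, from which the same match lies downstream.

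The other motifs were rare or missing in these promoters. The ER stress response element and its shorter form were in 0 of the 41 promoters, and in 0.137% and 0.0444% of all genes. Both are so rare that 0 matches in 41 promoters do not set these genes apart. Of the 23 unfolded protein response genes with a promoter sequence, 8 held the full element and 0 held TGACGTGG. Among the 8 were the chaperone genes Hspa5, Hsp90b1 and Calr. The cAMP response element was in 2 of the 41 promoters, Cope and Gosr2, and in 2.03% of all genes and 3.59% of tested genes. TCACGTGA was in 0 of the 41, and in 1.12% of all genes and 2.25% of tested genes. Among the other genes of the pathway TGACGTGG was in 2 of 114, the SNARE gene Stx5a and Scfd1, whose protein binds SNAREs. Outside the list, 90 tested genes held TGACGTGG; limma called 23 of them higher (25.6%) and 1 lower, and their median log2 change was 0.21 beside 0.17 for all genes tested. After median-of-ratios scaling that median was 0.03 beside -0.00, and 0 of the 90 were called.

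COPI genes had the tightest values of the 4 classes. The coat is a complex of 7 kinds of subunit, of which alpha-COP (Copa), beta-prime-COP (Copb2) and epsilon-COP (Cope) form a cage-like part, while beta (Copb1), gamma (Copg1 or Copg2), delta (Arcn1) and zeta (Copz1 or Copz2) form a part related to the clathrin adaptors. Copa was 55.8, 50.3, 67.6 and 51.4 FPKM in PATKO 53, 57, 70 and 71, against 39.2, 34.5, 28.9 and 36.004 FPKM in WT 55, 62, 64 and 65. The groups did not overlap, PATKO 70 was the highest library and WT 64 the lowest. Its log2 change of 0.69 (SE 0.12) was the largest of the COPI genes, and after median-of-ratios scaling it was 0.49 (SE 0.09). Cope, the most abundant COPI transcript per length, was 75.8, 77.8, 80.9 and 76.1 FPKM in the PATKO libraries, against 54.7, 52.7, 49.5 and 48.3 FPKM in the WT libraries, in the same order of library numbers. The 4 PATKO values lay close together and all above WT, with a log2 change of 0.59 (SE 0.06), or 0.40 (SE 0.06) after median-of-ratios scaling. Copb2 was 51.2, 44.9, 55.5 and 49.3 FPKM in PATKO, against 30.9, 38.4, 30.4 and 33.1 FPKM in WT. WT 62 came nearest to the PATKO libraries without reaching them.

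The remaining COPI genes stood above WT by less. Copb1 averaged 29.9 ± 1.47 FPKM in PATKO and 22.3 ± 0.714 in WT, and Arcn1 averaged 34.7 ± 1.997 FPKM in PATKO and 25.8 ± 0.915 in WT (SD, n = 4 each). Gamma-COP is made from a pair of genes. Copg1 was 23.2, 19.0, 25.2 and 20.5 FPKM in PATKO and 16.1, 15.9, 16.0 and 14.7 FPKM in WT, while Copg2 was 11.8, 13.01, 11.6 and 11.1 FPKM in PATKO and 10.2, 10.8, 10.8 and 10.5 FPKM in WT. Both were without overlap, but Copg2 had the lowest log2 change of the class, 0.16 (SE 0.07), and did not pass; after median-of-ratios scaling it was -0.03 (SE 0.08) and the groups overlapped. The share of Copg1 in the gamma-COP sum was 66.3%, 59.4%, 68.4% and 64.9% in PATKO and 61.2%, 59.5%, 59.7% and 58.3% in WT, with overlap at PATKO 57. Zeta-COP is also made from a pair of genes. Copz1 was 51.6, 52.5, 56.3 and 52.2 FPKM in PATKO and 47.3, 45.5, 40.2 and 43.9 FPKM in WT, and Copz2 was 41.045, 40.5, 50.5 and 37.5 FPKM in PATKO and 35.9, 33.9, 32.2 and 34.4 FPKM in WT. The share of Copz1 in the zeta-COP sum was 55.8% ± 2.27 in PATKO and 56.4% ± 0.800 in WT, so the balance of the pair differed by less than its spread.

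The subunits did not shift evenly, and their proportions do not depend on the scale of a library. Copa, Copb2 and Cope together made up 48.5%, 48.3%, 49.1% and 48.8% of the COPI sum in PATKO 53, 57, 70 and 71. In WT 55, 62, 64 and 65 they made up 44.2%, 44.8%, 42.5% and 43.7%. The PATKO shares were close together, and all lay above every WT share. Taken singly, the shares of Copa and Cope were higher in PATKO without overlap. That of Copb2 overlapped, at 13.3% ± 0.508 in PATKO and 12.2% ± 1.16 in WT. The share of Copz1 was 14.1% ± 0.528 in PATKO and 16.3% ± 0.443 in WT (SD, n = 4 each), again without overlap. The shares of Copb1, Copg1, Copg2, Copz2 and Arcn1 overlapped. The split into these subunits follows the known architecture of the coat but was examined after the values were seen.

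**Figure D3:**
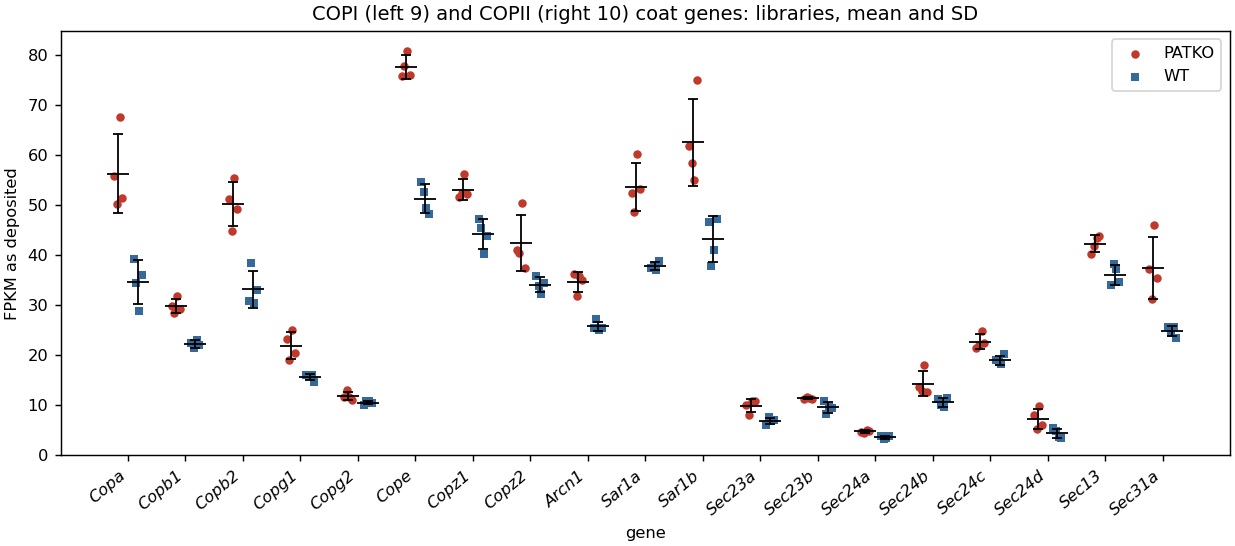
FPKM as deposited of each coat gene in each library (red circles PATKO on the left of each pair, blue squares WT), with the mean and SD of each group of 4. Cope has the highest levels in both groups; Copa, Copb2, Cope and Sar1a show wide gaps between the groups, whereas Sec24d overlaps.

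COPII genes also had higher means in PATKO, all 10 of them, where 10275 of the 12235 genes tested had a log2 change above 0. After median-of-ratios scaling 4 of the 10 were without overlap, beside 5.57% of all genes tested wholly above and 4.36% wholly below. Sar1b, Sec13 and Sec24c were among those that then overlapped, with log2 changes of 0.33, 0.04 and 0.06. SAR1, the GTPase that starts the coat, comes from a pair of genes. Sar1a was 52.4, 48.7, 60.3 and 53.3 FPKM in PATKO 53, 57, 70 and 71, against 37.4, 37.8, 36.983 and 38.8 FPKM in WT 55, 62, 64 and 65. The WT values were close together and far below the lowest PATKO value, with a log2 change of 0.50 (SE 0.07). Sar1b, the form known for the export of large lipoproteins, was 61.9, 58.5, 55.0 and 75.0 FPKM in PATKO and 46.7, 37.8, 41.1 and 47.3 FPKM in WT. PATKO 71 stood above the rest. Sar1a made up 46.3% ± 4.46 of the SAR1 sum in PATKO and 46.7% ± 2.51 in WT, a difference below the spread of the libraries.

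The inner layer was expressed at lower levels than SAR1. Sec23a, which activates the GTPase of SAR1, was 10.03, 8.08, 10.9 and 10.9 FPKM in PATKO and 6.10, 7.60, 6.89 and 7.13 FPKM in WT. Its paralog Sec23b was 11.3, 11.7, 11.5 and 11.3 FPKM in PATKO and 10.9, 8.36, 9.62 and 9.47 FPKM in WT. Both were without overlap, but the log2 change of Sec23a was 0.49 (SE 0.11) and that of Sec23b 0.25 (SE 0.08), which did not pass. After median-of-ratios scaling both overlapped, with changes of 0.30 (SE 0.11) for Sec23a and 0.06 (SE 0.08) for Sec23b. The 4 SEC24 genes encode the cargo-binding subunit, and Sec24c was the most abundant of them. Sec24c was 21.5, 22.2, 24.8 and 22.4 FPKM in PATKO and 19.1, 18.6, 18.2 and 20.2 FPKM in WT. Sec24d was 8.09, 5.29, 9.80 and 6.12 FPKM in PATKO and 5.46, 4.95, 3.61 and 3.55 FPKM in WT. It had the largest log2 change of the COPII genes, 0.66 (SE 0.19), but PATKO 57 lay below WT 55, and it did not pass. Sec24a was lower in level, at 4.71, 4.49, 5.14 and 4.95 FPKM in PATKO and 3.87, 3.34, 3.40 and 3.90 FPKM in WT. Sec24b was 13.7, 12.9, 18.0 and 12.7 FPKM in PATKO and 11.3, 10.02, 9.61 and 11.5 FPKM in WT. Neither gene overlapped between the groups, and PATKO 70 was the highest library for both. Of the SEC24 sum, Sec24c made up 46.4% ± 3.07 in PATKO and 50.6% ± 1.82 in WT, and Sec24d 14.7% ± 2.60 in PATKO and 11.6% ± 2.29 in WT, both with overlap.

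The outer cage genes parted. Sec31a was 37.3, 31.3, 46.005 and 35.4 FPKM in PATKO 53, 57, 70 and 71, against 25.6, 24.5, 25.7 and 23.5 FPKM in WT 55, 62, 64 and 65, without overlap and with a log2 change of 0.57 (SE 0.11). Sec13, whose product is shared with the nuclear pore, was 40.2, 41.9, 43.5 and 43.8 FPKM in PATKO and 34.04, 38.2, 37.3 and 34.6 FPKM in WT. Its log2 change of 0.23 (SE 0.06) was the lowest of the class. The ratio of Sec31a to Sec13 was 0.927, 0.747, 1.06 and 0.808 in PATKO and 0.751, 0.641, 0.689 and 0.680 in WT. PATKO 57 fell just below WT 55, so the ratios overlapped.

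Cargo receptors were the most mixed class. Limma called 8 of the 18 higher, beside 13.2% of all genes tested, and 0 after median-of-ratios scaling. With FPKM as deposited 2, Tmed5 and Ergic1, had log2 changes below 0. The p24 proteins, encoded by Tmed genes, bind COPI and COPII and sort lipid-anchored proteins among other cargo. Tmed3 was 29.7, 28.2, 32.7 and 30.7 FPKM in PATKO 53, 57, 70 and 71, against 19.2, 20.9, 18.5 and 21.1 FPKM in WT 55, 62, 64 and 65. All PATKO values lay well above WT, with a log2 change of 0.59 (SE 0.07) that was 0.40 (SE 0.07) after median-of-ratios scaling. Tmed5, of the same gamma subfamily, was 17.8, 17.5, 16.6 and 19.7 FPKM in PATKO and 17.8, 19.5, 19.7 and 23.2 FPKM in WT. Its log2 change was -0.16 (SE 0.09), the lowest of the list, and -0.35 (SE 0.10) after median-of-ratios scaling, with overlap on both scales. The authors' deposited table gives Tmed5 an adjusted p of 0.0352.

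The ratio of Tmed3 to Tmed5, which does not depend on the scale of the library, set the groups far apart. It was 1.67, 1.62, 1.97 and 1.55 in PATKO and 1.07, 1.07, 0.939 and 0.909 in WT. This pair was picked after the values were seen. The other p24 genes lay between them: Tmed4 averaged 43.9 ± 3.22 FPKM in PATKO and 35.7 ± 2.66 in WT, and Tmed9 averaged 32.6 ± 2.20 FPKM in PATKO and 26.5 ± 0.842 in WT (SD, n = 4 each), both without overlap. After median-of-ratios scaling Tmed4 overlapped and Tmed9 did not. Tmed1, Tmed2, Tmed7 and Tmed10 overlapped between the groups and had log2 changes from 0.08 to 0.22. In the sum of the 8 p24 genes, Tmed4 was the largest part at 24.0% ± 1.16 in PATKO and 23.2% ± 1.20 in WT, and Tmed2, the beta form, was the smallest at 4.74% ± 0.258 in PATKO and 5.31% ± 0.235 in WT.

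KDEL receptors bring escaped ER residents back from the Golgi. Kdelr1, the most abundant cargo receptor gene per length, was 65.9, 67.8, 79.0 and 63.7 FPKM in PATKO 53, 57, 70 and 71, against 58.3, 46.4, 49.8 and 53.9 FPKM in WT 55, 62, 64 and 65. Kdelr2 was 26.1, 18.6, 31.8 and 25.4 FPKM in PATKO and 16.3, 17.2, 13.9 and 16.2 FPKM in WT. Neither overlapped, although PATKO 57 came near to WT 62 for Kdelr2, whose log2 change of 0.64 (SE 0.14) was the largest of the receptors. After median-of-ratios scaling Kdelr2 overlapped, with a change of 0.45 (SE 0.13). Kdelr3 was low, at 2.44, 1.63, 3.001 and 1.69 FPKM in PATKO and 1.82, 1.83, 1.16 and 1.91 FPKM in WT, with overlap. Kdelr2 made up 26.2% ± 3.35 of the KDEL receptor sum in PATKO and 22.9% ± 2.33 in WT, which overlapped.

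Among the remaining receptors, Mia3 (TANGO1), which helps to export collagens and other bulky cargo, was 10.7, 9.15, 12.6 and 9.88 FPKM in PATKO and 7.92, 8.18, 6.91 and 8.21 FPKM in WT. The groups did not overlap, and the log2 change was 0.41 (SE 0.10). After median-of-ratios scaling it was 0.22 (SE 0.08) and the groups overlapped. Lman1, a lectin that exports glycoproteins, averaged 25.9 ± 0.744 FPKM in PATKO and 20.7 ± 1.15 in WT, and its partner Mcfd2 averaged 46.2 ± 1.33 FPKM in PATKO and 36.7 ± 3.67 in WT (SD, n = 4 each). The ratio of Mcfd2 to Lman1 was 1.78 ± 0.0910 in PATKO and 1.77 ± 0.0911 in WT, so the partners kept their proportion within the spread. The lectin gene Lman2 and the cycling receptor gene Ergic2 overlapped between the groups. Ergic3 averaged 48.9 ± 4.03 FPKM in PATKO and 41.6 ± 1.85 in WT, without overlap, and did not pass. After median-of-ratios scaling Ergic3 overlapped as well. Ergic1, of the same family and shown here after its values were seen, was 44.0, 47.3, 40.6 and 46.1 FPKM in PATKO and 41.5, 48.6, 48.7 and 52.8 FPKM in WT, with a log2 change of -0.10 (SE 0.08).

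**Figure D4:**
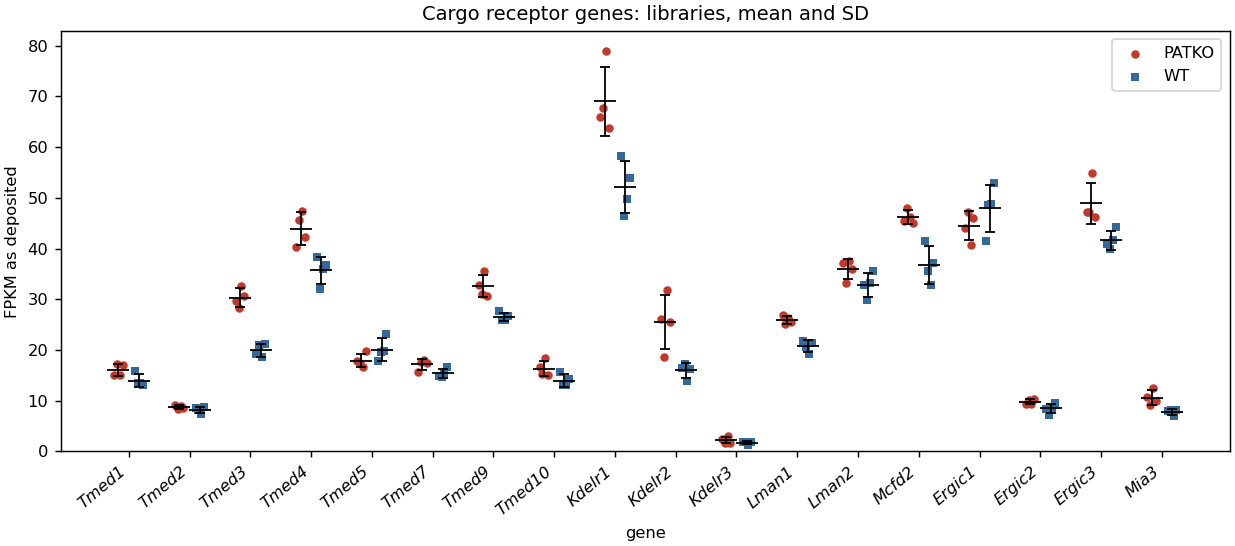
FPKM as deposited of each cargo receptor gene in each library (red circles PATKO on the left of each pair, blue squares WT), with the mean and SD of each group of 4. Tmed3 and Kdelr1 are higher in every PATKO library than in any WT library, whereas Tmed5 and Ergic1 have lower means in PATKO with overlap.

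Regulators included the gene with the largest log2 change of the list. Sec16b, a paralog of the scaffold of ER exit sites, was 2.42, 2.18, 3.54 and 2.08 FPKM in PATKO 53, 57, 70 and 71, against 1.33, 1.10, 0.962 and 0.903 FPKM in WT 55, 62, 64 and 65. All PATKO values lay above WT, and the mean was 2.38 times the WT mean (log2 change 0.94, SE 0.16; 0.79, SE 0.14, after median-of-ratios scaling). It was also the lowest of the 46 genes in WT, and a log2 change on the scale with the pseudocount of 0.5 FPKM understates the change of a gene this low. The main scaffold gene Sec16a, shown for the ratio of the pair, was 9.20, 7.13, 9.97 and 8.05 FPKM in PATKO and 6.17, 5.90, 6.19 and 6.47 FPKM in WT. The ratio of Sec16b to Sec16a was 0.263, 0.305, 0.355 and 0.259 in PATKO and 0.216, 0.187, 0.155 and 0.140 in WT, without overlap; this ratio too was examined after the values were seen.

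Arf1, the GTPase that recruits COPI, had the highest level of all 46 genes. It was 79.5, 73.7, 91.4 and 80.8 FPKM in PATKO and 58.8, 60.3, 53.2 and 58.6 FPKM in WT, without overlap and with a log2 change of 0.49 (SE 0.08). Gbf1, the exchange factor that activates ARF1 at the early Golgi, averaged 10.3 ± 0.673 FPKM in PATKO and 8.07 ± 0.420 in WT (SD, n = 4 each), also without overlap. Preb, the exchange factor that activates SAR1, averaged 10.1 ± 0.612 FPKM in PATKO and 8.67 ± 0.840 in WT with overlap. Among the SNARE genes, whose products fuse the vesicles with their target, Sec22b was 19.6, 14.5, 19.0 and 19.4 FPKM in PATKO and 12.3, 14.3, 11.5 and 13.7 FPKM in WT. PATKO 57 lay just above the highest WT library, but below it after median-of-ratios scaling. Gosr2 averaged 18.8 ± 2.01 FPKM in PATKO and 13.9 ± 0.778 in WT without overlap, whereas Bet1 averaged 15.6 ± 1.13 FPKM in PATKO and 13.97 ± 0.843 in WT with overlap. After median-of-ratios scaling Gosr2 overlapped too. Tfg, which organises COPII vesicles between the ER and the Golgi, was 30.0, 30.1, 29.3 and 30.4 FPKM in PATKO and 27.7, 24.1, 31.4 and 28.1 FPKM in WT. Its log2 change of 0.11 (SE 0.08) was the lowest of the regulators.

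Other genes of the route, 134 in 7 lists named by their textbook roles, were fitted in the same model. Of the 127 tested, limma called 38 higher and 0 lower with FPKM as deposited, beside 13.2% and 0.270% of all genes tested; 67 were higher and 0 lower at an unadjusted 0.05, beside 34.6% and 1.39% of all genes. The 13.2% of all genes called higher is also the background of each list's count of genes that rose. Median-of-ratios scaling left 0 calls, with 20 higher and 9 lower at an unadjusted 0.05, beside 9.10% and 8.21% of all genes. Without PATKO 53 or WT 64 the count of 38 became 0, and it was 1 without PATKO 70, 3 without WT 62, 15 without PATKO 71 and 15 without WT 65. Their median log2 change was 0.19, close to the 0.17 of all genes tested.

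Among the lists, ER and Golgi SNARE machinery had the most calls for its size, 10 of 17, with a median log2 change of 0.31. The Golgi SNARE gene Bet1l rose to 25.9 ± 1.30 FPKM in PATKO, against 19.1 ± 1.45 in WT (limma adjusted p = 0.0197). Of ARF GTPases and COPI regulators 7 of 14 rose, with a median of 0.24. The genes of ARF GTPase-activating proteins rose together: Arfgap1 was 11.1 ± 1.40 FPKM in PATKO and 7.52 ± 0.693 in WT (limma adjusted p = 0.0248), Arfgap3 was 5.96 ± 1.31 FPKM in PATKO and 3.51 ± 0.0539 in WT (limma adjusted p = 0.0261), and Arfgap2 rose as well. Of 10 tested other cargo receptors 4 rose (median 0.20), led by Yipf5, an ER-Golgi membrane protein, at 11.8 ± 0.791 FPKM in PATKO and 7.74 ± 0.616 in WT (limma adjusted p = 0.0169). Surf4, a receptor for soluble cargo, was 41.3 ± 4.72 FPKM in PATKO and 31.4 ± 2.27 in WT (limma adjusted p = 0.0316). Of 8 other COPII and exit site factors 3 rose (median 0.26), among them Mia2, the partner of TANGO1. None of these genes passed after median-of-ratios scaling, where their limma adjusted p-values ran from 0.0942 (Yipf5) upward.

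Tethers and later coats had medians near that of all genes. Of 24 genes for TRAPP, golgins and Rab tethers 8 rose (median log2 change 0.18), among them Rab2a at 51.2 ± 1.31 FPKM in PATKO and 41.3 ± 1.38 in WT (limma adjusted p = 0.0222). Of 27 tested genes for clathrin and its adaptors, the coats of the later secretory and endocytic routes, 5 rose (median 0.18), among them Cltc at 41.7 ± 3.04 FPKM in PATKO and 32.95 ± 1.21 in WT (limma adjusted p = 0.0263). After median-of-ratios scaling both medians were -0.01.

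Of 27 tested unfolded protein response genes 1 rose, Eif2ak3, which encodes the stress sensor PERK, at 6.51 ± 1.15 FPKM in PATKO and 4.35 ± 0.461 in WT (limma adjusted p = 0.0347; 0.210 after median-of-ratios scaling). The median log2 change of the list was 0.12, below that of all genes tested. The ER chaperone gene Hspa5 was 100.6, 98.5, 98.3 and 97.1 FPKM in PATKO 53, 57, 70 and 71, against 94.3, 111.7, 88.9 and 100.7 FPKM in WT 55, 62, 64 and 65 (limma adjusted p = 0.993). Of the genes whose products bind elements of the kind searched above, Xbp1 was 39.2 ± 3.96 FPKM in PATKO and 33.7 ± 4.12 in WT (limma adjusted p = 0.151), Atf6 was 8.01 ± 0.320 FPKM in PATKO and 7.47 ± 0.300 in WT (limma adjusted p = 0.321), and Creb3l2 was 3.52 ± 0.824 FPKM in PATKO and 2.87 ± 0.250 in WT (limma adjusted p = 0.243; SD, n = 4 each). Their transcripts do not report the splicing of Xbp1 or the cleavage of the other proteins, which the table does not measure.

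**Figure D5:**
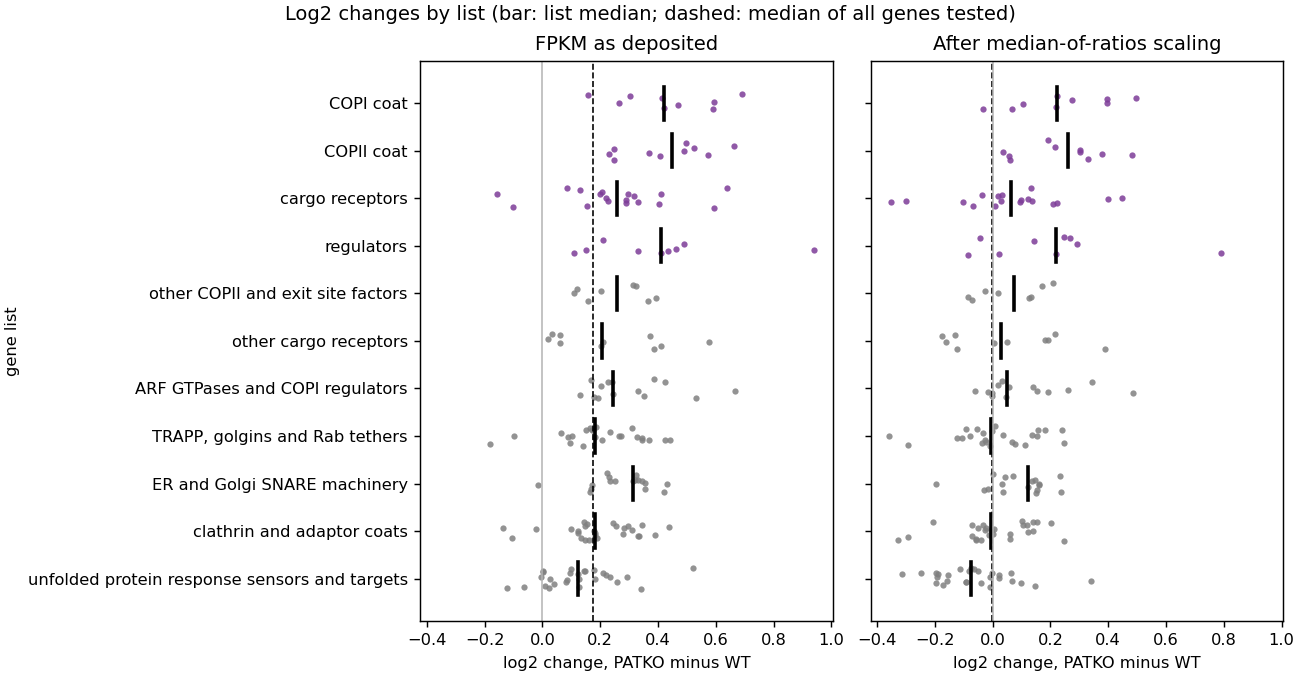
Each point is the log2 change, PATKO minus WT, of 1 gene (purple: the 4 classes described here; grey: other genes of the route), with a bar at the median of each list and a dashed line at the median of all genes tested. With FPKM as deposited (left) the medians run from 0.12 for unfolded protein response genes to 0.45 for the COPII coat, and after median-of-ratios scaling (right) from -0.07 to 0.26.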

How the data were processed

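Poly(A) RNA was sequenced from 8 libraries, by a stranded mRNA protocol, per the labels' protocols. The authors deposited an FPKM value for each gene symbol and library, with a mean FPKM per group and an adjusted p-value, per the file headers; the genome build was mm10, per the submitters' processing notes, whereas the sources used here do not name the aligner, the counting or the test. FPKM are not counts, so genes averaging 0.5 FPKM or more over all libraries were fitted on log2(FPKM + 0.5) with limma 3.58.1 in R 4.3.3 (mean-variance trend, two-sided), with Benjamini-Hochberg adjustment over the 12235 genes and a threshold of 0.05. Read depth is unknown, so no counting intervals are given. Library numbers are not shared between groups, so no block was used. Per-library values are given for the most abundant member of each class, its 3 largest and its lowest log2 changes, and the paralog sets; Sec16a and Ergic1 fall outside this rule and were chosen after their values were seen. Of each other pathway list, some of the 4 genes with the smallest adjusted p are named, as are Xbp1, Atf6 and Creb3l2 for their role in the motif search, with Hspa5, Stx5a, Scfd1, Hsp90b1 and Calr added after seeing the data. The members, lists and motifs were chosen with earlier results of these data known. The table rows of near-identical paralogs could share reads. The fitting step was also tested on simulated data; figures used Python 3.11.15 and matplotlib 3.10.9. The alternatives were other pseudocounts, filters, scalings and limma settings, a muscle covariate and leaving out each library.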

Additional observations from a re-analysis of the deposited data

Results flagged for a closer look

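In 5 of 92 groups of 4 libraries (46 genes in each group of mice), 1 library stood apart from the other 3, with a gap past Dixon's critical value for 4 samples; chance gives about 1 in 20. Ergic3 was 54.9 FPKM in PATKO 70, the gap to the next library being 0.883 of the range. Sec22b was 14.5 FPKM in PATKO 57, below the other PATKO libraries by 0.884 of the range. In WT, Copg1 was lowest in WT 65 (14.7 FPKM, 0.867 of the range), Tmed1 was highest in WT 55 (15.8 FPKM, 0.846 of the range) and Kdelr3 was lowest in WT 64 (1.16 FPKM, 0.872 of the range).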

How the results depend on the processing

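The direction of the members was recomputed under 26 other settings, and 31 of the 43 members with a value in each had a log2 change above 0 in all 26. Kdelr3, Sec16b and Sec24a, which the 5 FPKM filter leaves out, lay above 0 in the other 25. The count of 29 members called higher became 2 with TPM scaling, 1 with quantile normalization, and 0 with median-of-ratios scaling or the muscle covariate. Leaving out 1 library gave counts of 2 to 27, and 25 of the 27 called without WT 55 were among the 29. The 38 other pathway genes called higher became 1 with TPM scaling, 21 without a trend, 20 without a filter, and 0 with median-of-ratios scaling, quantile normalization or the muscle covariate; leaving out 1 library gave 0 to 29. The members' median log2 change of 0.33 was 0.14 with median-of-ratios scaling and 0.14 with quantile normalization, and 0.30 to 0.38 with 1 library left out. With median-of-ratios scaling and 1 library left out together, members and pathway genes called higher were 0 in each case, the median ran from 0.13 to 0.19 (0.14 without PATKO 53, 0.15 without PATKO 70 or 71, 0.17 without WT 55, 0.16 without WT 62 or 65), 1 pathway gene was called lower without WT 55, and the log2 change of Sec13 turned to -0.0076 there. The cause was not tested. No paired analysis was possible because the groups share no replicate numbers. Read depth is unknown, so the precision of low genes such as Sec16b and Kdelr3 rests on the spread of the libraries.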
